A study of Mus musculus with 2 samples.

Results

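The genes described here are 10 signal and niche genes of the liver endothelium: the Wnt ligands Wnt2 and Wnt9b, the R-spondin Rspo3, the BMP ligands Bmp2 and Bmp6, the growth factor Hgf, the Notch ligand Dll4, the connexin Gja4, the transcription factor Sox17 and the receptor tyrosine kinase Kit. They are 10 of 31053 genes in a table of single-cell RNA-seq counts. They were chosen by their measured UMI counts in the endothelial barcodes of the libraries compared below, so those values are given as a description and were not tested. A barcode was taken as endothelial where it held 10 or more unique molecular identifiers (UMIs, counted transcript molecules) of Ptprb, Kdr, Egfl7, Cldn5, Ramp2 and Clec4g together. By this rule 57 of 2989 barcodes of the control and 154 of 1524 barcodes of the tetYAP library were endothelial.

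The study expressed YAP, the transcriptional co-activator held in check by the Hippo kinases, in mouse liver. Both libraries came from hepatocytes of C57BL/6 mice, isolated by liver perfusion and profiled with a droplet platform that reads transcript 3' ends. Both genotypes carried LaptTA, the tetracycline transactivator under the LAP promoter used for liver-specific expression. The control was LaptTA;WT, and the LaptTA; tetYAP animal carried in addition the mutant YAP S127A at the Col1A1 locus, which doxycycline food keeps silent and which was active for 4 weeks after its withdrawal at 4 weeks of age. Each genotype had 1 library, so there is no replicate error and no test between genotypes, and all intervals below are exact 95% intervals that cover counting error only.

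Endothelial cells of the hepatic lobule signal to the hepatocytes beside them. Wnt2, Wnt9b and Rspo3 from the endothelium around the central vein maintain the pericentral gene programme of hepatocytes through beta-catenin, and Rspo3 acts by protecting Wnt receptors from removal. Bmp2 and Bmp6 from the sinusoidal endothelium drive hepatocyte expression of hepcidin, the hormone that limits iron uptake. Hgf, made by stellate and endothelial cells, activates Met on hepatocytes, while Dll4, Sox17 and Gja4 (connexin 37) belong to Notch signalling and the arterial programme within the endothelium, and Kit binds stem cell factor.

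The upstream windows of the genes that differed past 2-fold are shown because they let the sequence be read beside the counts below. RefSeq promoter entries on GRCm38.p6 were found for 7 of the 10 genes, and not for Rspo3, Bmp2 and Sox17. All 10 are protein-coding, and Wnt2 spans chr6:17985474-18032772, Dll4 chr2:119325784-119335666 and Bmp6 chr13:38345716-38500314. The windows are the 250 bases before the annotated start, for Wnt2 at chr6:18030446-18030695 on the minus strand, for Dll4 at chr2:119325534-119325783 on the plus strand and for Bmp6 at chr13:38345466-38345715 on the plus strand. The Wnt2 window lies inside the RefSeq span of the gene, before an inner annotated start. Capitals mark GC boxes (GGGCGG on either strand).
Wnt2: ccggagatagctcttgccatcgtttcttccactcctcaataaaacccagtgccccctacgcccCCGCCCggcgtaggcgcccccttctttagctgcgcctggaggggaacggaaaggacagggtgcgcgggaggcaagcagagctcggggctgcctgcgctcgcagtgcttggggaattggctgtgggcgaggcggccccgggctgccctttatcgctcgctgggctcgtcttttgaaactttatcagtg
Dll4: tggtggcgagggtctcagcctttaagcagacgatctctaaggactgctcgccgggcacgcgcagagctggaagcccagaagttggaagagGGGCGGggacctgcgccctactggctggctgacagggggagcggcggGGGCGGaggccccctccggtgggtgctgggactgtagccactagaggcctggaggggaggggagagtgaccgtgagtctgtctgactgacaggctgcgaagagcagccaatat
Bmp6: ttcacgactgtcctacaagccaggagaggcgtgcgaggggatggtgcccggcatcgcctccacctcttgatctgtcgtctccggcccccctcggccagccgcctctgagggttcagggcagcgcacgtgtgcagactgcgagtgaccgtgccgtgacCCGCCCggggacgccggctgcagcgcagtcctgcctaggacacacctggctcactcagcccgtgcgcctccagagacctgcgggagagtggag

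Motifs were searched on both strands, namely the TEAD core GGAATG, the RBPJ core TGGGAA, the TCF core CTTTG, the TATA box TATAAA and the GC box GGGCGG, none of which contains another, although the TEAD and RBPJ cores can share letters where they adjoin. The GC box was in 1 Wnt2, 2 Dll4 and 1 Bmp6 position, and 32.7% of 32851 promoter windows of the same length held it. It was also in windows of Wnt9b, Gja4 and Kit, none of which was called past 2-fold. The Wnt2, Dll4 and Bmp6 windows were 63.6, 65.6 and 68.8% GC, against a median of 52.4% for all windows. They held no other of the motifs. Over the 7 genes with an entry the TEAD core and the TATA box were in no window, against 12.6% and 12.4% of all windows. The RBPJ core was in a window of Hgf, against 21.6% of all windows, and the TCF core was in windows of Wnt9b, Gja4 and Kit, against 48.6%. These matches describe the letters of the windows and show no binding.

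The control library held 9509885 UMIs with a median of 3117 per barcode, and the tetYAP library held 6777210 with a median of 4150. No barcode sequence was shared between the libraries. The endothelial share was 1.91% (1.45 to 2.46%) for control barcodes against 10.1% (8.64 to 11.7%) for tetYAP barcodes, with median depths of 4691 and 5863.5 UMIs. These are shares of the 2989 control and 1524 tetYAP barcodes present after the study removed deep cells. The effect of that removal on the shares and depths was not tested. Just below the limit, at marker sums of 8 to 9, were 7 control and 21 tetYAP barcodes, and just inside it, at sums of 10 to 12, were 5 and 15. Yap1 had 149 UMIs in the other control and 105 in the other tetYAP barcodes, or 16.1 and 17.8 in counts scaled to a total of 1000000 UMIs (CPM), so the counts do not check the genotype labels, and whether transgene reads were counted as Yap1 is not given in the sources used here. In the endothelial barcodes Xist had 0 control and 802 tetYAP UMIs while 4 Y-linked genes had 41 and 0, so genotype, sex and animal cannot be told apart.

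The endothelial label held against markers outside the rule. All 9 sinusoidal markers tried, among them Stab1, Stab2 and Dnase1l3, were detected in both libraries, with a median summed count of 22 UMIs per control and 42 per tetYAP endothelial barcode. Defining markers of mast cells, which also carry Kit, had no UMI among control and 1 among tetYAP endothelial barcodes. Macrophage markers had a median of 0 and 4 UMIs per endothelial barcode, and 6 of the 9 with 10 or more UMIs were higher past 2-fold in the tetYAP library. Hepatocyte transcripts were in every endothelial barcode, with medians of 430 and 304 UMIs of 12 hepatocyte markers, against 429 and 337 in the other barcodes, and 8 of the 12 were lower past 2-fold in the tetYAP endothelial barcodes. The part of these foreign transcripts in the values below was not tested.

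All levels are CPM over the barcodes named. A gene was counted as past 2-fold only with 10 or more UMIs over both libraries, with the lower sum set to no less than 3 UMIs, which is 11.1 CPM in the control and 3.46 in the tetYAP endothelial barcodes. Of the 10 genes, 9 passed that minimum, and 3 of them (Wnt2, Rspo3 and Dll4) were higher past 2-fold in the tetYAP endothelial barcodes, where 11.4% of 8494 genes were. Bmp6 alone of the 9 was lower past 2-fold, where 7.70% of the 8494 genes were. The remaining 5 genes stayed within 2-fold, and the median of all 8494 genes was 0.17 on the log2 scale. These counts come from the contrast on which the genes were selected and carry no weight as evidence for the group.

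**Figure D1:**
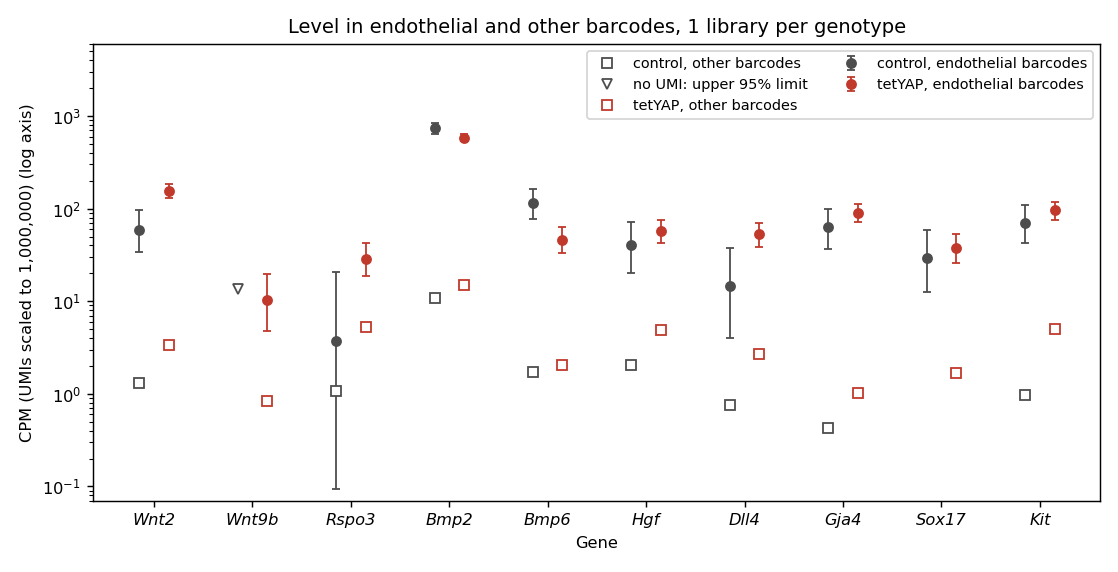
CPM of the 10 genes on a log axis, with filled circles for endothelial barcodes (bars are exact 95% Poisson intervals) and open squares for all other barcodes, grey for control and red for tetYAP. The open triangle is the upper limit for Wnt9b in the control, where it had no UMI, and squares are missing where other barcodes held none. Bmp6 is the gene whose red circle lies farthest below its grey one (46.1 against 114), while Wnt2 and Dll4 lie above.

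Wnt2, a ligand of central and sinusoidal endothelium, had 16 UMIs over 57 control and 136 over 154 tetYAP endothelial barcodes. This was 58.9 against 157 CPM, a level 2.66-fold higher in the tetYAP library (1.58 to 4.78). It was seen in 12 control barcodes (21.1%, 11.4 to 33.9%) and 57 tetYAP barcodes (37.0%, 29.4 to 45.2%). The higher sum came with higher counts per barcode as well as more positive barcodes, since no control barcode exceeded 3 UMIs while 13 tetYAP barcodes held 4 to 10. Thinned to 2000 UMIs per barcode, the shares were 10.5% and 20.8%. The log2 ratio of 1.41 dropped to 0.19 (-1.03 to 1.43) among barcodes with marker sums of 10 to 19, where the levels were 62.6 and 71.2 CPM, and to 0.98 when counted per UMI of the 6 endothelial markers.

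Wnt9b, the other Wnt ligand of the central vein, had a UMI in 0 of 57 control barcodes, which by the floor of 3 counts allows a share of barcodes with a UMI of up to 5.26% (exact upper limit 6.27%), and had 9 UMIs in 7 of 154 tetYAP barcodes. The tetYAP level of 10.4 CPM was under both the floor of 11.1 CPM and the exact upper limit of 13.6 CPM for no control UMI, so a difference was not detectable at this depth. Among the other barcodes Wnt9b had 0 control and 5 tetYAP UMIs.

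Rspo3, the R-spondin of the central vein, had 1 UMI among control and 25 among tetYAP endothelial barcodes. As counted this was 3.68 against 28.8 CPM, a log2 ratio of 2.97 (0.36 to 8.33), and 1.38 with the control set to the floor. Those 25 UMIs lay in 4 barcodes with 15, 5, 4 and 1 UMIs, and without the barcode with 15 the floored ratio was 0.07. The barcode with 15 Rspo3 UMIs also held 5 of Wnt2, 2 of Wnt9b, 3 of Thbd and 36 of Fabp4, and the one with 5 held 3 of Wnt2, 1 of Wnt9b, 6 of Thbd and 34 of Fabp4. The one with 4 held 2 of Wnt9b and 7 of Fabp4 but none of Wnt2, Thbd or Kit. Of the 4 endothelial barcodes with Rspo3, 3 also held Wnt9b. Thbd and Fabp4 are pericentral endothelial markers outside the rule. Fabp4 was widespread, with 8.87 UMIs per tetYAP endothelial barcode with Wnt2 but no Dll4 and 5.62 per barcode with Dll4 but no Wnt2. The share of tetYAP endothelial barcodes with Rspo3 was 2.60% (0.71 to 6.52%). It was 2.19% of the 183 tetYAP barcodes with erythroid, B or T and NK markers, which should lack it. The share was thus not above that background beyond counting error. The level was higher, at 28.8 CPM (18.6 to 42.5) against 4.96 (1.35 to 12.7), and rested on the few barcodes with several UMIs.

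Most Rspo3 UMIs of the control, and more than those of the endothelium in the tetYAP library, lay outside endothelial barcodes, which held 9.09% and 44.6% of them. The 6 control barcodes with stellate markers held 3 Rspo3 UMIs and the 22 tetYAP ones held 5, and the tetYAP barcodes with markers of several lists held 5. The remaining barcodes, those of no marker list, held 7 in the control and 10 in the tetYAP library, and tetYAP macrophage barcodes held 7. Decorin (Dcn), a stellate and fibroblast proteoglycan, was in some of these barcodes and not in others. A tetYAP barcode with 4 Rspo3 UMIs had 105 of Dcn and 4 of Hgf and a control stellate barcode with 2 had 36 of Dcn, whereas a remaining and a macrophage barcode of the tetYAP library with 2 Rspo3 UMIs each had none.

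None of the other 20 Wnt and R-spondin genes in the table reached 10 UMIs in the endothelial barcodes, and 17 were at 0 in both libraries. Of 23 Wnt receptor and feedback genes 8 had 10 or more UMIs. Fzd4, an endothelial frizzled receptor, was at 62.6 and 118 CPM (log2 ratio 0.91, 0.16 to 1.74), and Lrp6, a Wnt co-receptor, at 77.4 and 72.6 CPM. Nkd1, a feedback inhibitor named here after its values were seen, was the 1 gene of that list past 2-fold, with 3 and 22 UMIs.

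**Figure D2:**
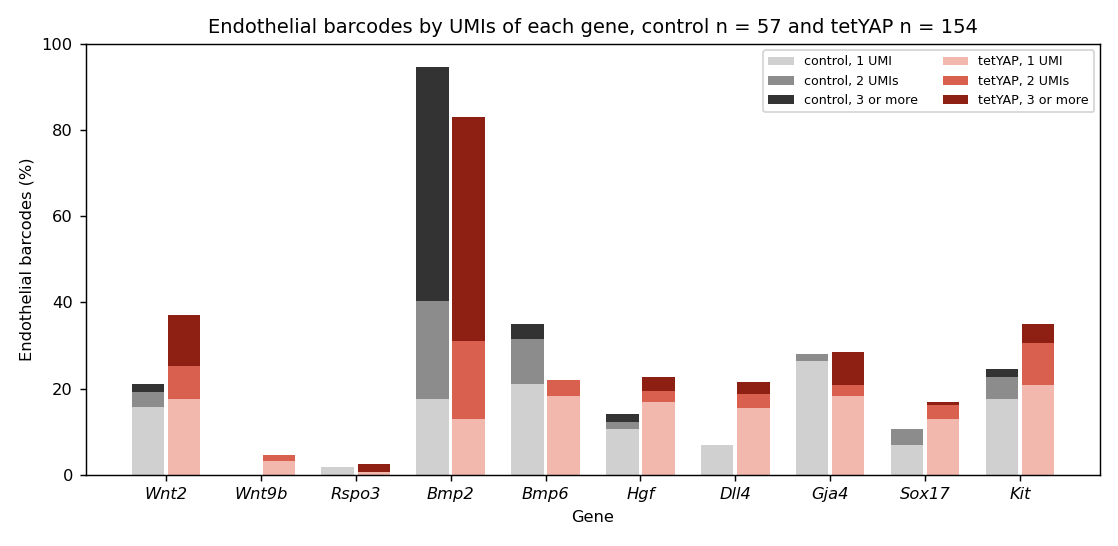
Share of endothelial barcodes (percent) that held 1, 2, or 3 or more UMIs of each gene, grey for the 57 control and red for the 154 tetYAP barcodes, with darker shades for more UMIs. Bmp2 was found in most barcodes of both libraries (94.7% and 83.1%), whereas Wnt9b and Rspo3 were found in few.

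Bmp2, the sinusoidal BMP ligand, was detected in 54 of 57 endothelial barcodes of the control (94.7%, 85.4 to 98.9%), against 128 of 154 of the tetYAP library (83.1%, 76.2 to 88.7%). Its 200 and 509 UMIs corresponded to 737 and 586 CPM, a log2 ratio of -0.33 (-0.57 to -0.09). The highest count in a barcode was 11 in both libraries. Bmp2 made up 65.1% of the 307 control and 50.4% of the 1009 tetYAP endothelial UMIs of the 10 genes. Its lower level in the tetYAP library was within 2-fold over all endothelial barcodes, and the log2 ratio reached -1.11 (-1.57 to -0.66) among barcodes with sums of 10 to 19, where the levels were 678 and 315 CPM.

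Bmp6, the second BMP ligand for hepcidin, was the gene lower past 2-fold in the tetYAP library. It had 31 control UMIs in 20 barcodes (35.1%, 22.9 to 48.9%) and 40 tetYAP UMIs in 34 barcodes (22.1%, 15.8 to 29.5%), at 114 and 46.1 CPM. The level was 2.48-fold higher in the control, a log2 ratio of -1.31 (-2.02 to -0.58). No tetYAP barcode held more than 2 UMIs, and the control maximum was 4. The ratio kept its sign under all 14 alternative settings. Without barcodes above 30% mitochondrial UMIs it was -0.997 (-1.81 to -0.16), just short of 2-fold.

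The table held 12 other genes of the BMP and TGF-beta ligand list, of which 4 had 10 or more UMIs in endothelial barcodes and none was past 2-fold. Tgfb1 was at 118 and 219 CPM (0.89, 0.35 to 1.48). Among 17 BMP receptor and target genes with 10 or more UMIs, 2 were higher (Acvr1 and Hamp2) and 2 lower (Hamp and Id2) past 2-fold. Eng, an endothelial co-receptor, was at 748 and 895 CPM, and the target Id3 was at 490 and 656 (0.42, 0.15 to 0.70). Hamp, the hepcidin gene, is a hepatocyte transcript, and it was read in the remaining barcodes, those with fewer than 10 UMIs of the endothelial markers and of each list of macrophage, monocyte or neutrophil, T or NK, B, stellate and erythroid markers.

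In the 2883 control and 819 tetYAP remaining barcodes Hamp was at 6968 and 1513 CPM, a log2 ratio of -2.20 (-2.24 to -2.16). Its paralogue Hamp2 was at 31.9 and 606 CPM, in the opposite direction (4.25, 4.07 to 4.43). Reads of similar paralogues can be split uncertainly between the genes, and whether that happened here was not tested. The libraries also differed in Xist and Y-linked counts, so genotype and sex cannot be told apart for this pair either. In endothelial barcodes the ratios were of similar size, -2.33 for Hamp and 4.61 for Hamp2. The target Id2 was lower as well (-1.06, -1.23 to -0.90), while Tmprss6, an inhibitor of the pathway, was at 143 and 189 CPM (0.40, 0.26 to 0.54). Over all 11215 genes with 10 or more UMIs in these barcodes, 20% were higher and 13.3% lower past 2-fold, and of the 22 genes of the list 4 were higher and 3 lower.

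**Figure D3:**
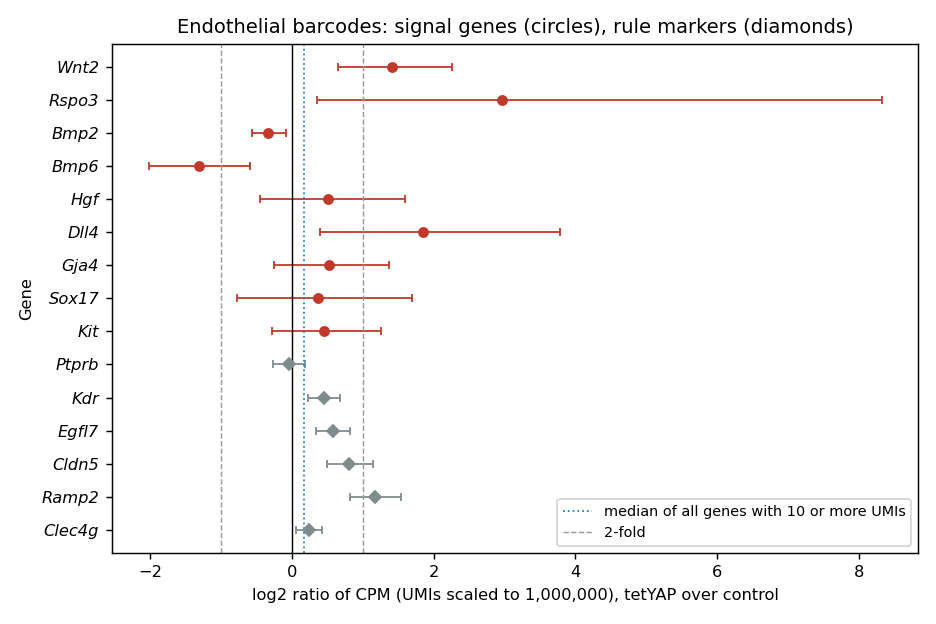
Log2 ratio of CPM, tetYAP over control, in endothelial barcodes as counted, with exact 95% intervals, for 9 of the genes (circles) and for the 6 markers of the rule (diamonds). Dashed lines mark 2-fold and the dotted line the median of all genes (0.17). The intervals of Bmp2 and Bmp6 lie below 0, those of Wnt2, Rspo3 and Dll4 above it, and the rule marker Ramp2 at 1.17 is also past 2-fold.

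Hgf, the ligand of Met, had 11 and 50 UMIs in the endothelial barcodes, or 40.5 and 57.6 CPM. The log2 ratio was 0.51 with an interval that includes 0 (-0.45 to 1.60). It was detected in 8 control and 35 tetYAP endothelial barcodes. Stellate cells are a known source, and the stellate barcodes held 4 Hgf UMIs in 6 control and 6 in 22 tetYAP barcodes, or 0.667 and 0.273 per barcode against 0.193 and 0.325 in endothelial ones. Within the endothelial barcodes 8 control and 10 tetYAP genes of the 12 stellate markers were detected, with sums of 236 and 262 CPM. Pdgfrb was the 1 gene of that list at 0 in both. Dcn had 11 and 83 UMIs and was higher past 2-fold in the tetYAP library, while Rgs5 was lower. The highest stellate sum in an endothelial barcode was 12 control and 37 tetYAP UMIs. The part of stellate RNA in the endothelial Hgf was not tested. The receptor Met was at 17.8 and 20.8 CPM in the remaining barcodes (0.22, -0.20 to 0.63).

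Dll4, the endothelial Notch ligand, had 4 control and 46 tetYAP UMIs in endothelial barcodes. This was 14.7 against 53.0 CPM, 3.60-fold higher in the tetYAP library (1.31 to 13.8). The 4 control UMIs were in 4 barcodes (7.02%, 1.95 to 17.0%), and the tetYAP UMIs were in 33 barcodes (21.4%, 15.2 to 28.8%) with at most 3 each. With so few control counts the log2 ratio of 1.85 ranged from 0.28 to 2.33 over the 14 alternatives. It was 0.28 with the marker limit applied after thinning, 0.55 among sums of 10 to 19 and 0.67 with a limit of 20 UMIs, where the control held no Dll4 UMI and was set to the floor.

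Other genes of the Notch pathway stayed within 2-fold in the endothelial barcodes. Of 14 such genes, 8 had 10 or more UMIs and their median log2 ratio was 0.41. Notch1 was at 118 and 153 CPM (0.38, -0.19 to 0.98), and Notch4, the endothelial receptor, at 25.8 and 43.8 (0.76, -0.42 to 2.17). The target Hes1 was at 62.6 and 53.0 CPM (-0.24, -1.07 to 0.65).

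Gja4, the endothelial connexin 37, had 17 and 78 UMIs, or 62.6 and 89.9 CPM (0.52, -0.25 to 1.37). Positive barcodes made 28.1% of the control set and 28.6% of the tetYAP set. What differed was the count within positive barcodes, as 1 of 16 control and 16 of 44 tetYAP positive barcodes held 2 or more. The ratio depended on the marker sum. Among sums of 10 to 19 the levels were 67.8 and 15.3 CPM (-2.15, -4.60 to -0.29), and in barcodes with sums of 20 to 39 they were 59.1 and 119.

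Among 5 other connexin genes 3 had 10 or more UMIs in endothelial barcodes, and the hepatocyte connexins Gjb1 (-1.11) and Gjb2 (-1.22) were lower past 2-fold. Both were lower in the remaining barcodes too, at -0.62 and -0.77. Gja1, the broadly used connexin 43, was at 73.7 and 66.8 CPM.

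Sox17, a transcription factor of arterial identity, had 8 and 33 UMIs, or 29.5 and 38.0 CPM (0.37, -0.78 to 1.69). In the control all 8 UMIs of the library were in endothelial barcodes. Its direction held under 10 of the 14 alternatives. Among 10 further endothelial transcription factors Lmo2 was past 2-fold (1.15, 0.14 to 2.35), Maf was at 1013 and 1161 CPM and Klf2 at 608 and 621.

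Kit, which marks central-side sinusoidal endothelium and mast cells, had 19 and 83 UMIs, or 70.0 and 95.6 CPM (0.45, -0.28 to 1.25). It was found in 24.6% of control and 35.1% of tetYAP endothelial barcodes, with at most 3 UMIs in a barcode of either library. Among sums of 10 to 19 the direction was the opposite (-1.30, -3.16 to 0.31). Its ligand Kitl had 2 and 24 UMIs in the endothelial barcodes, which as counted is a log2 ratio of 1.91 (-0.10 to 5.03).

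The tetYAP endothelial barcodes carried more endothelial marker UMIs, with a median sum of 31 against 18 in the control. For this reason the genes were also read in bands of the sum. Wnt2 was at 59.1 control and 163 tetYAP CPM in barcodes with sums of 20 to 39, where the control had 13 barcodes and the tetYAP library 69. Bmp2 was at 887 and 590 in the same band. Sums of 40 or more were reached by 2 control barcodes, so that band gives no comparison. Bmp2 was higher in the control in each band from sums of 3 to 5 up to 20 to 39, and the levels of both Wnt2 and Bmp2 in the tetYAP library increased from band to band.

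**Figure D4:**
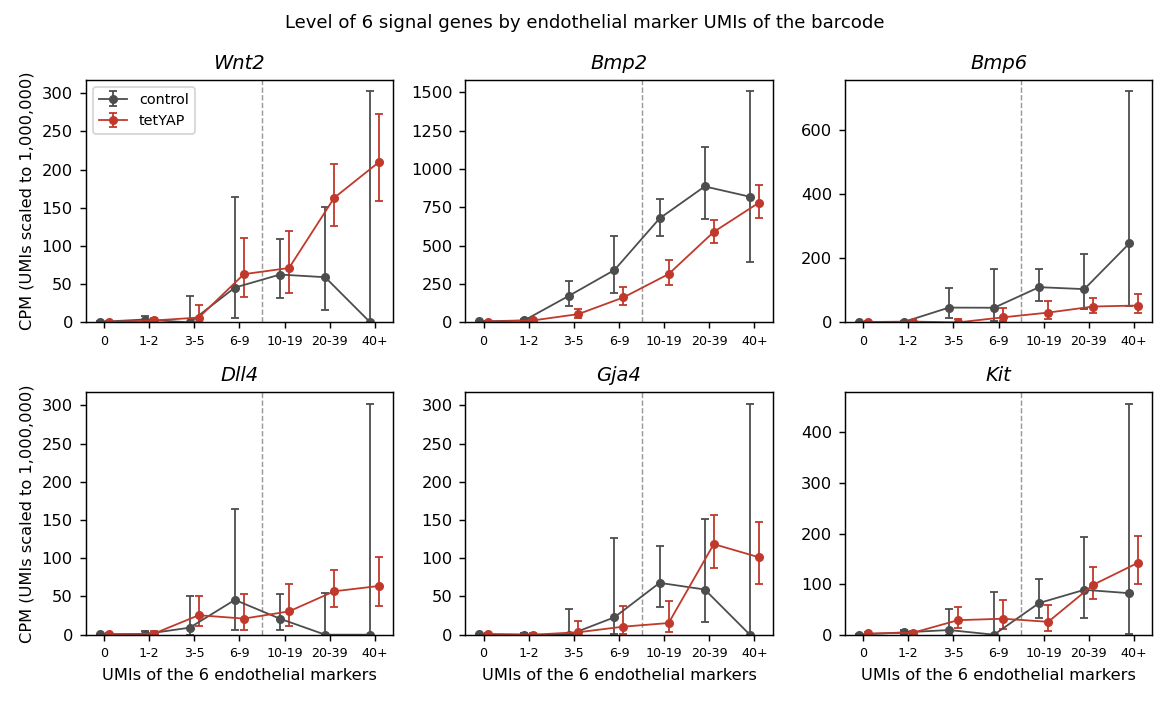
CPM of 6 genes (vertical axis) in bands of the summed UMIs of the 6 endothelial markers per barcode (horizontal axis), grey for control and red for tetYAP, with exact 95% Poisson intervals. The dashed line marks the limit of 10 UMIs. Bmp2 in the control lies above the tetYAP library from sums of 3 to 5 up to 20 to 39, while Wnt2 in the band of 20 to 39 is higher in the tetYAP library (163 against 59.1), and the last control band holds 2 barcodes.

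Levels in endothelial and other barcodes were among the values by which the genes were chosen, so the following is a description and no support. In the control 8 of the 8 genes with 10 or more UMIs, and in the tetYAP library 10 of 10, were higher past 2-fold in endothelial than in other barcodes, where 39.5% and 33.5% of all genes were. Endothelial barcodes held 2.85% of all control UMIs and 12.8% of all tetYAP UMIs. They held 81.0% of control and 92.9% of tetYAP Gja4 UMIs, 57.1% and 87.2% of Wnt2 UMIs, and 66.9% and 85.1% of Bmp2 UMIs. The share was lower for Dll4, at 36.4% and 74.2%, and for Hgf, at 36.7% and 63.3%. The excess over other barcodes was 68.8-fold for Bmp2 in the control (53.8 to 88.4) and 38.9-fold in the tetYAP library (31.0 to 49.3). For Rspo3 in the control it rested on 1 UMI (3.40-fold, 0.08 to 23.9).

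Outside endothelial barcodes the 10 genes together had 176 control and 248 tetYAP UMIs, or 0.0600 and 0.181 per barcode, against 5.39 and 6.55 per endothelial barcode. In the 183 tetYAP barcodes with erythroid, B or T and NK markers, at a median depth of 4286 UMIs, there were 5 Bmp2 UMIs and 4 each of Rspo3, Sox17 and Kit, and none of Wnt2, Wnt9b, Bmp6, Gja4 and Dll4. Bmp2 was thus in 2.73% of these barcodes, beside 83.1% of the endothelial ones. In the remaining barcodes 4 of the 7 genes with 10 or more UMIs (Wnt2, Rspo3, Dll4 and Kit) were higher past 2-fold in the tetYAP library, where 20% of all genes were. These barcodes also held more endothelial marker UMIs, 0.966 per barcode in the tetYAP library against 0.223 in the control, and the part of that in the ratios was not tested. Over the whole library, more endothelial cells and more transcript per endothelial cell cannot be told apart.

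Many endothelial barcodes held several of the genes, with Bmp2 alone in 94.7% of control and 83.1% of tetYAP ones. Whether the genes were found together more often than their single shares imply was not tested. A median of 2 of the 10 genes was detected per control and 3 per tetYAP endothelial barcode, and 3 or more were found in 38.6% and 51.9%. In the tetYAP library 40.4% of the 57 barcodes with Wnt2 also held Gja4 (27.6 to 54.2%), against 21.6% of the 97 without Wnt2 (13.9 to 31.2%). In that library Dll4 was in 21.1% of barcodes with Wnt2 and 21.6% of those without. In the control Dll4 was in 3 of 12 barcodes with Wnt2 (5.49 to 57.2%) and 1 of 45 without (0.06 to 11.8%), and Gja4 was in 4 of the 12 and 12 of the 45. Barcodes with Wnt2 were deeper, with medians of 6187 and 5705 UMIs, and joint detection depends on depth.

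The 45 tetYAP barcodes with Wnt2 but no Dll4 and the 21 with Dll4 but no Wnt2 differed in several zonal markers. Thbd had 44 UMIs in the first set and 2 in the second, which is 169 and 16.6 CPM. Cdh13 had 9 and 0 UMIs, and Rspo3 had 21 and 0, of which 15 came from 1 barcode. In the other direction Efnb2, an arterial ephrin, was at 19.2 and 99.5 CPM with 5 and 12 UMIs, Ltbp4 at 153 and 365, and Ly6a at 295 and 837. Of the same arterial and large-vessel list Plvap was at 142 and 49.7 CPM, higher in the set with Wnt2, and Emcn at 172 and 166. The 76 barcodes with neither ligand were at 31.7 CPM for Thbd, 43.9 for Efnb2, 300 for Ltbp4 and 471 for Ly6a. The 12 barcodes with both ligands were at 104 CPM for Thbd, 39 for Efnb2, 78 for Ltbp4, 534 for Ly6a and 364 for Plvap. The higher Ltbp4 of the set with Dll4 alone was thus not seen where Dll4 came with Wnt2. Efnb2 rested on 3 UMIs in the barcodes with both. In the sets with Wnt2 alone and with Dll4 alone, Kit was at 126 and 66.3 and Gja4 at 142 and 58.0 CPM. The sinusoidal markers Stab2 (885 and 945) and Clec4g (1395 and 1285) were close. The sets and these markers were picked after their counts were seen, the sets are small, and had median depths of 5963 and 5730 UMIs, so the values are a description.

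Of 5 pericentral endothelial markers outside the 10 genes, 4 had 10 or more UMIs in endothelial barcodes and 2 of them were higher past 2-fold in the tetYAP library, where 11.4% of all genes were. Cdh13 and Lhx6 had 0 control UMIs and 11 and 16 tetYAP UMIs, within 2-fold of the floor. Fabp4, a fatty acid carrier of vascular endothelium, had 45 and 1079 UMIs, or 166 and 1243 CPM (2.91, 2.48 to 3.37). Thbd, thrombomodulin, was at 33.2 and 77.2 CPM (1.22, 0.21 to 2.41). Of 10 periportal, arterial or large-vessel markers with 10 or more UMIs, Cd34, Emcn and Plvap were higher past 2-fold and none was lower. The other 7, among them Efnb2 and Ltbp4, stayed within 2-fold. In the sets above Cd34 was at 116 CPM with Dll4 alone, 30.7 with Wnt2 alone and 100 with neither. It had no UMI in the 12 barcodes with both, so it did not go with Dll4 throughout. Plvap was higher with Wnt2 alone than with Dll4 alone, and Emcn was close. These calls therefore do not place the higher levels on 1 side of the lobule.

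Hepatocyte targets of the ligands were read in the remaining barcodes. Of 12 pericentral Wnt target genes 2 were higher (Oat and Rhbg) and 1 lower (Lgr5) past 2-fold, with a median log2 ratio of -0.14 against -0.06 for all genes. Glul, glutamine synthetase of the innermost pericentral hepatocytes and named here after its values were seen, was at 58.8 and 60.8 CPM (0.05, -0.19 to 0.28). Cyp2e1 was at 1048 and 663 (-0.66, -0.73 to -0.59), and Oat, ornithine aminotransferase, at 99.8 and 329 (1.72, 1.60 to 1.85). Lgr4, the R-spondin receptor of hepatocytes, was lower at 53.9 and 23.4 CPM (-1.20, -1.56 to -0.86). The mitochondrial share was not taken for the remaining barcodes alone. All barcodes outside the endothelial set, which include them, had medians of 28.2% in the control and 40.6% in the tetYAP library.

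Genes with the most similar pattern were sought over 12 points, each the summed counts of 1 cell class in 1 library, by the Pearson correlation of log2(CPM + 10) with 9764 genes. The closest to Wnt2 was Jam2 (0.985), a junctional adhesion molecule, followed by Cav2 and Sgce. The closest to Bmp6 was Bmp2 (0.972). Dll4 was closest to Afap1l1 (0.980), Kit to Hecw2 (0.979), Gja4 to Hoxa5 (0.999), Sox17 to Ackr1 (0.979), Rspo3 to Ednrb (0.942) and Hgf to Vcl (0.919). The points share libraries and differ in depth, most of the spread lies between endothelial and other classes, and Wnt9b had fewer than the 50 UMIs required.

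**Figure D5:**
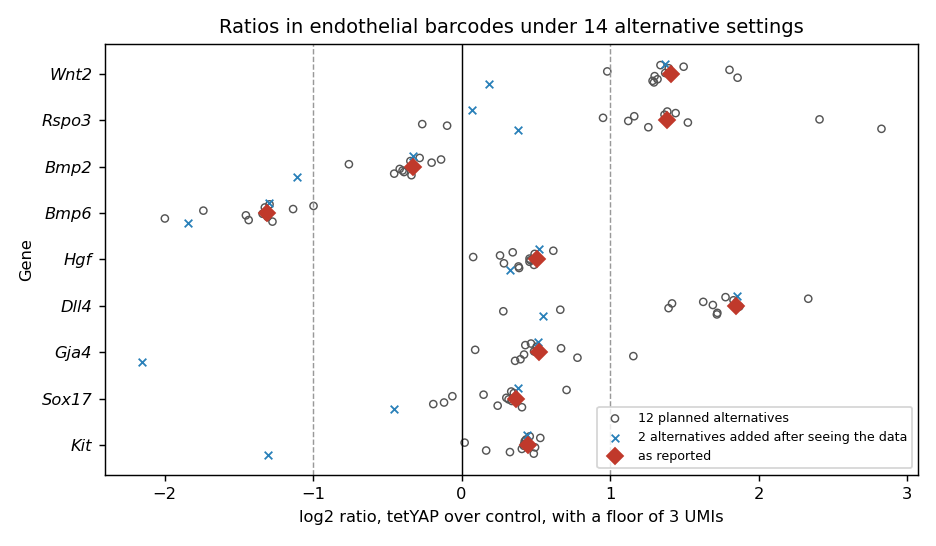
Log2 ratios of 9 genes in endothelial barcodes, tetYAP over control, as reported (red diamonds, with a floor of 3 UMIs) and under 14 alternative settings (open circles for planned ones, crosses for those added after the data were seen). Bmp6 stays below 0 and Wnt2 and Dll4 above it in all settings, Rspo3 spans -0.26 to 2.83, and the cross far left for Gja4 (-2.15) is the band of sums from 10 to 19.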

How the data were processed

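The authors deposited raw counts, whole numbers of UMIs per gene and barcode. The submitters' processing notes name Cell Ranger, Seurat 3 and the mm10 build. Per the study's methods, cells were sampled down to the same number per condition and cells above a UMI limit were removed. The deepest barcode here has 7493 UMIs. The counts hold 2989 control and 1524 tetYAP barcodes, so the libraries lost unequal numbers in these steps. What this did to the levels was not tested.

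The counts were summed over barcodes with Python 3.11.15, NumPy 2.4.6, SciPy 1.17.1 and pandas 2.3.3, and edgeR 4.0.16 gave TMM factors as a normalization only. Poisson, Clopper-Pearson and conditional binomial intervals are exact at 95%. A sum under 3 UMIs was set to 3 for ratios and calls. With 1 to 3 control UMIs, Rspo3, Kitl and Ednrb are given with the ratio as counted and its interval, and Nkd1 and Spp1 as counts only. No doublet caller was run. As an alternative, barcodes holding 10 or more UMIs of macrophage, monocyte or neutrophil, T or NK, B or stellate markers were left out. Erythroid markers were not used for this, and 1 endothelial barcode of each library held 10 or more erythroid UMIs. Ratio code was checked on simulated counts.

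Groups follow the genotype label. The 10 genes and all lists were chosen with earlier results of these data known. Other genes were named as the 6 rule markers, the 4 with the most UMIs in a list and those with the most similar pattern, except where stated or where a count of calls names its genes. No mouse is replicated, so no test was made. Alternatives varied the marker limit, markers, scaling, floor and barcodes.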

Additional observations from a re-analysis of the deposited data

How the results depend on the processing

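Of 126 log2 ratios of the 9 genes under 14 alternatives, 117 stayed within the counting interval of the reported value. Altogether 8 changed sign, namely 4 of Sox17 (-0.06 to -0.45), 2 of Rspo3 and 1 each of Gja4 (-2.15) and Kit (-1.30), the last 2 among sums of 10 to 19. Rspo3, the only one of these past 2-fold as reported, was at -0.26 with a limit of 20 UMIs and -0.10 with the limit applied after thinning to 2000 UMIs, where the control held no Rspo3 UMI and its sum was set to the floor. The count of genes higher past 2-fold was 3 (Wnt2, Rspo3 and Dll4), and became 2 with a limit of 20 UMIs (Wnt2 and Gja4), 2 without the barcode with the most Rspo3 UMIs (Wnt2 and Dll4), 1 after the thinned limit (Wnt2), 1 per endothelial marker UMI (Dll4) and 0 among sums of 10 to 19. The count of genes lower past 2-fold was 1, and became 4 among sums of 10 to 19 (Bmp2, Bmp6, Gja4 and Kit). It became 0 without barcodes above 30% mitochondrial UMIs, where Bmp6 was at -0.997. The band of sums and the removal of the barcode with the most Rspo3 UMIs were chosen after the data were seen. Endothelial barcodes numbered 15 in the control with a limit of 20 UMIs, and 14 in the control and 80 in the tetYAP library with the thinned limit, and the cause was not tested. With thinning, 15 of 20 shares of barcodes with a UMI moved by more than their interval. With 30 UMIs as the minimum per gene, 15.4% of genes were higher and 6.77% lower past 2-fold. Depth limits Wnt9b, Rspo3 and Dll4 most, with 0, 1 and 4 control UMIs. No paired analysis was possible because each genotype has 1 library and no result comes from a test.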

Other observations

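Endothelial signal genes outside the 10 were read in the same endothelial barcodes. Of 19 further angiocrine signals and receptors 11 had 10 or more UMIs, and Ednrb (3 and 37 UMIs, log2 ratio 1.95, 0.29 to 4.29) and Nos3 (8 and 60 UMIs, 1.23, 0.16 to 2.51) were higher past 2-fold in the tetYAP library, while Igf1, largely a hepatocyte transcript, was lower (-1.02, -1.34 to -0.71). Ednrb is an endothelin receptor and Nos3 the endothelial nitric oxide synthase. Flt4 was at 302 and 438 CPM (0.54, 0.19 to 0.90), Flt1 at 155 and 234 (0.60, 0.11 to 1.11) and Tek at 122 and 167 (0.46, -0.09 to 1.05), all within 2-fold.

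Spp1, the osteopontin gene and part of a ductal list, had 1 control and 55 tetYAP UMIs in the endothelial barcodes, while Krt7, Krt19 and Epcam of the same list had none in either library. The 5 genes of the list together, with Sox9, had 0.357 UMIs per tetYAP endothelial barcode and 0.374 per other tetYAP barcode. In the control these means were 0.0526 and 0.0351, so the higher count was not particular to endothelial barcodes.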
